A study of Sus scrofa with 12 samples.

Results

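The genes followed here act in matrix breakdown by porcine aortic valve cells: the proteases MMP1, ADAMTS1 and FAP and the protease inhibitor TIMP3. All probe sets whose single gene symbol in the platform annotation was one of these 4 names were taken, which gave 7 of 23999 probe sets on the array. MMP1 and FAP had 1 probe set each, ADAMTS1 had 2 and TIMP3 had 3. Of these, 6 probe sets read over log2 4 in at least 3 of the 12 arrays and were tested. The remaining one, the third probe set of TIMP3, lay between 2.34 and 3.09 on every array and is not described further. A gene with several probe sets is represented by the one with the highest mean over all arrays.

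The cells were valvular interstitial cells, the fibroblast-like cells of the valve leaflet, freed from adult pig aortic valves with collagenase II. RNA was read on Affymetrix 3' arrays, 3 biological replicates to each of 4 groups. P2 untreated cells had gone through 2 passages on plastic and were kept in medium with 1% serum. The treated P2 cells were kept in the same way and also received porcine TGF-β1, 5 ng/ml, during 8 h or 24 h, and all P2 cultures lasted 3 days. P0 cells were taken fresh from the digest, with no culture and no treatment. The labels do not say how many animals gave each replicate. No deletion, transgene or sorting step is named for any group.

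Valve interstitial cells both lay down and break down the leaflet's collagen, proteoglycan and elastin. Matrix metalloproteases (MMP) and ADAMTS enzymes are zinc proteases that cut these molecules outside the cell, and the TIMP proteins block them by binding their active sites. TGF-β1 is a cytokine known to turn fibroblasts into contractile, matrix-depositing myofibroblasts, and in many fibroblasts it shifts the balance between proteases and inhibitors.

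Array medians lay within 0.0734 of each other. Of 13 interstitial and fibroblast markers 12 had a probe set, and all 12 had group means above the control level in P2 untreated and in P0 cells. Vimentin (VIM) averaged 15.57 in P2 untreated and 15.62 in P0 cells, but others differed in level: ACTA2 averaged 15.33 in P2 untreated and 12.43 in P0 cells, S100A4 12.40 in P2 untreated and 7.30 in P0 cells, and DCN 13.34 in P2 untreated and 14.98 in P0 cells. The 13 macrophage and monocyte markers with a probe set (of 18 listed) summed to 1227 to 1762 on the linear scale in P2 untreated arrays and to 12611 to 18596 in P0 arrays, with only ITGAM at the level of the control probe sets on all arrays. The P2 arrays numbered 3 stood apart from the other P2 arrays: the 15 endothelial markers with a probe set (of 16 listed) summed to 1238 to 1814 in them, to 3584 to 6252 in the other 6 P2 arrays, and to 3453 to 4462 in P0 arrays. Among those markers KDR was at the control level on all arrays. For the representative probe sets, values without the arrays numbered 3 are given beside the changes of TGF-β1-treated against P2 untreated cells, and likewise for the list counts. Leaving these arrays out also lowered the number of probe sets called on the whole array in the comparisons among P2 groups (counts are given at the end). Shares of all genes were not worked out for that fit, so its list counts have no such share beside them.

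**Figure D1:**
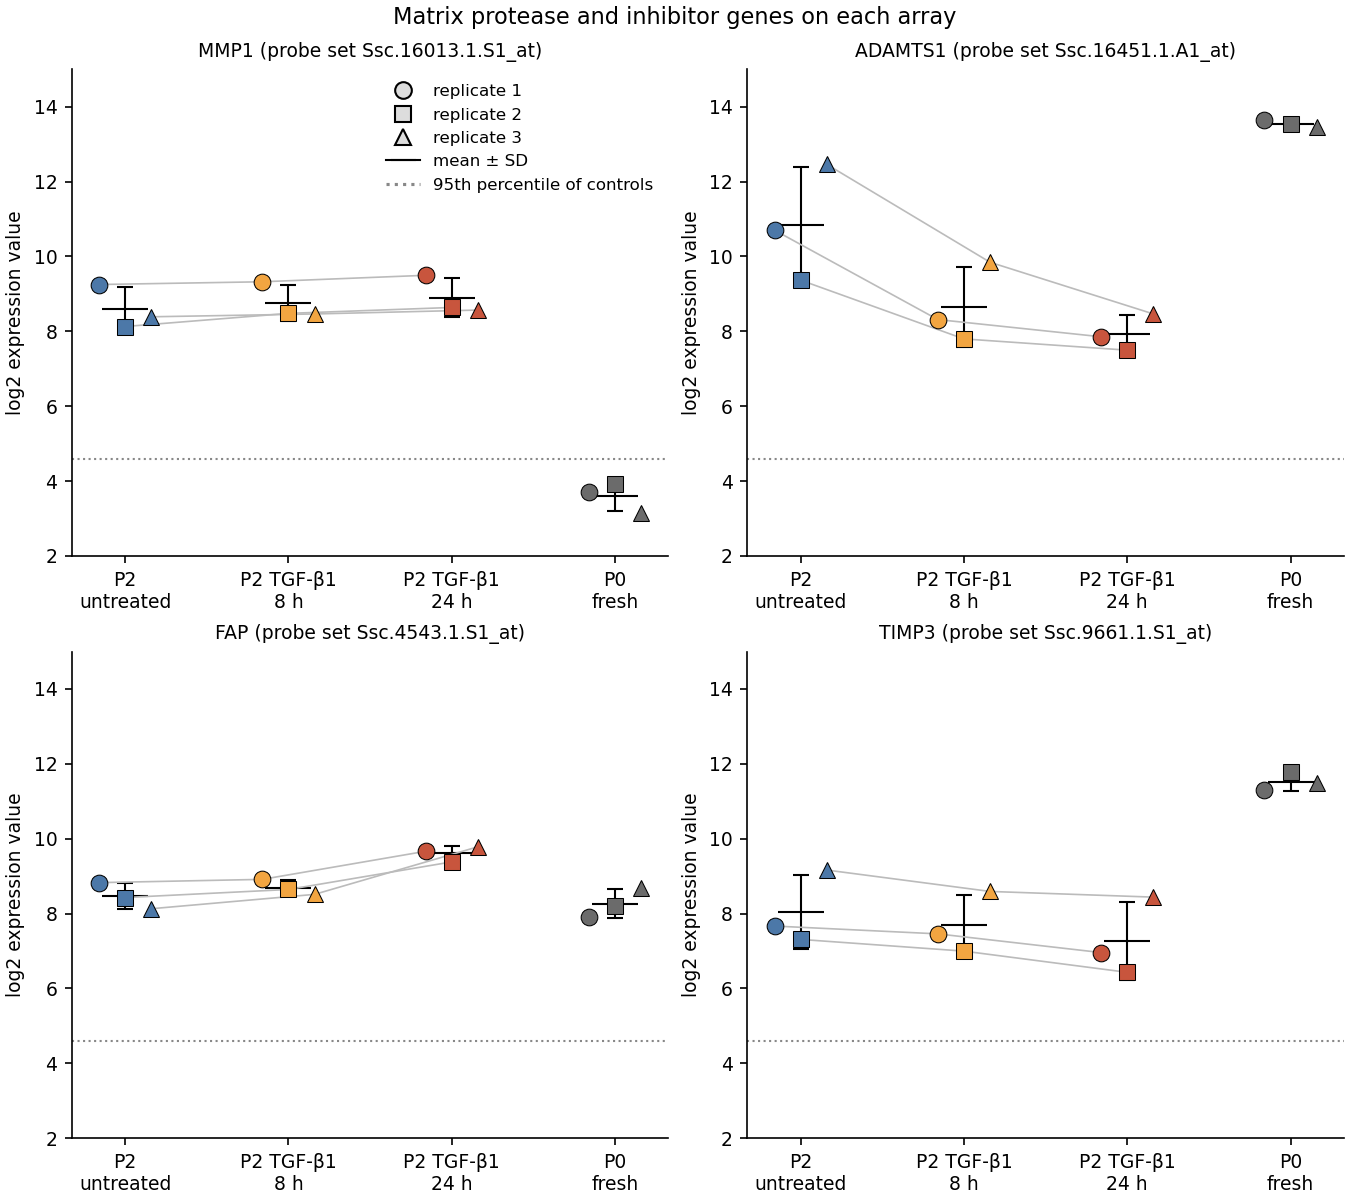
Log2 expression value of the representative probe set of each gene on every array, by group. Symbols mark the replicate number, grey lines join P2 arrays with the same number, black bars give the mean ± SD of 3 arrays, and the dotted line is the 95th percentile of the control probe sets (4.58). MMP1 was under that line in P0 cells alone, ADAMTS1 and TIMP3 were highest in P0 cells, and FAP was highest at 24 h of TGF-β1.

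The effect of passaging on plastic was asked first, by comparing P2 untreated with P0 cells. Between these groups 3 of the 4 genes differed. In P2 untreated cells the collagenase MMP1 was at least 16.0-fold higher, while ADAMTS1 was 6.50-fold and the inhibitor TIMP3 11.2-fold lower. FAP did not pass the test. Of the 6 tested probe sets 5 were called at an adjusted p under 0.05, 1 higher and 4 lower, in a comparison that called 59.4% of all probe sets, 33.6% higher and 25.8% lower. The same 5 did not overlap between groups, as was true of 65.1% of all probe sets, so these shares are those of a comparison in which most probe sets moved. No batch or date is named for the arrays, and one that separated P2 from P0 arrays cannot be told apart from culture. P0 cells also came straight from the collagenase digest, which likewise cannot be told apart from culture. The words 'in culture' below name this comparison.

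MMP1 encodes interstitial collagenase, which makes the first cut in fibrillar collagens. Its log2 values were 9.25, 8.13 and 8.39 in P2 untreated cells, against 3.72, 3.92 and 3.14 in P0 cells. All P0 values lay under the 95th percentile of the 64 reporter control probe sets (4.58), so in P0 cells MMP1 was not above the background of the array, and the fold is a lower bound counted from that level (limma adjusted p = 1.98e-07, 3 against 3 arrays). In every cultured group, by contrast, MMP1 stood well above it. The bound was 18.0-fold for 8 h of TGF-β1 against P0 (adjusted p = 1.37e-07, 61.3% of all probe sets called) and 19.9-fold for 24 h against P0 (adjusted p = 1.07e-07, 62.5% of all probe sets called). These comparisons share the P0 arrays.

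ADAMTS1 encodes a secreted protease known to cut the proteoglycans aggrecan and versican. Its representative probe set read 10.70, 9.37 and 12.46 in P2 untreated cells, against 13.64, 13.54 and 13.45 in P0 cells. Every cultured array lay below every fresh one, but the cultured arrays spread far more, over 3.09 log2 units against 0.187 in P0 cells. The log2 fold change was -2.70 ± 0.661 (SE, adjusted p = 0.00376). It was -3.51 without P2 untreated replicate 3, the array with the highest cultured value, and -1.96 without P2 untreated replicate 2, the one with the lowest, and passed in both cases.

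The second ADAMTS1 probe set read 9.89, 8.65 and 11.60 in P2 untreated cells and 13.08, 13.01 and 12.87 in P0 cells. It gave a log2 fold change of -2.94 ± 0.655 (adjusted p = 0.00200). Over the 12 arrays both ADAMTS1 probe sets ran in parallel (Pearson r = 0.999, a description over arrays that share groups).

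TIMP3 encodes an inhibitor that binds to the extracellular matrix and blocks MMP, ADAM and ADAMTS enzymes. Its representative probe set read 7.67, 7.31 and 9.16 in P2 untreated cells, against 11.30, 11.79 and 11.49 in P0 cells. Replicate 3 was the highest of the cultured arrays, yet still more than 2 log2 units under the lowest P0 array. The log2 fold change was -3.48 ± 0.569 (adjusted p = 0.000206), and -4.04 without P2 untreated replicate 3. On the second TIMP3 probe set the values lay between 6.24 and 8.03 in P2 untreated cells and between 10.53 and 10.98 in P0 cells, with a log2 fold change of -3.62 ± 0.536 (adjusted p = 9.29e-05).

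FAP encodes fibroblast activation protein, a serine protease on the surface of activated fibroblasts that cuts after proline. Its values were 8.83, 8.43 and 8.13 in P2 untreated cells, against 7.91, 8.21 and 8.68 in P0 cells. The 2 groups overlapped, and the log2 fold change of 0.19 ± 0.218 had a 95% confidence interval from -0.28 to 0.67 (adjusted p = 0.467). FAP was therefore well above background before any culture. In bulk RNA, fewer cells of a type and less RNA per cell cannot be told apart, and the part of the lower macrophage marker level of cultured cells in these differences was not tested.

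**Figure D2:**
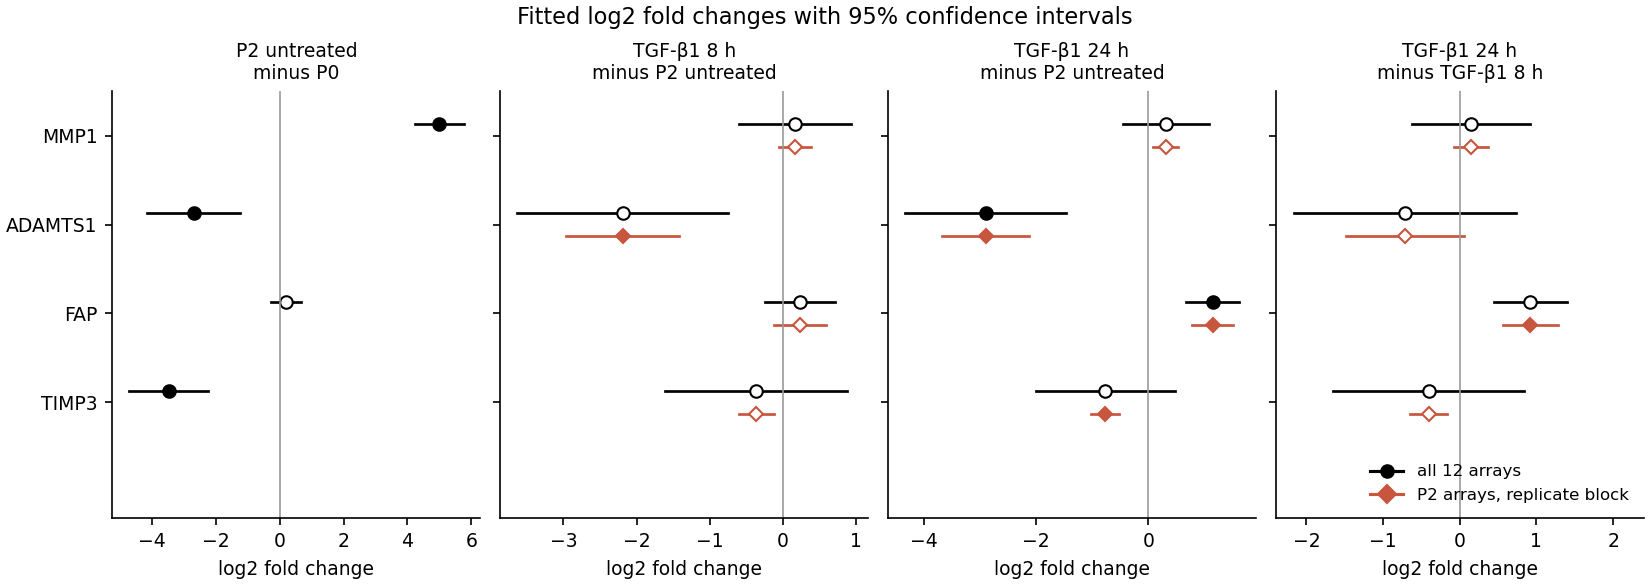
Log2 fold change of each gene's representative probe set in 4 comparisons, with 95% confidence intervals, the group named first minus the one named second. Black circles are from the fit of all 12 arrays and red diamonds from a fit of the 9 P2 arrays with the replicate number as a block, filled where the adjusted p was under 0.05. MMP1, ADAMTS1 and TIMP3 differed between P2 untreated and P0 cells, and ADAMTS1 and FAP at 24 h of TGF-β1. ADAMTS1 at 8 h, TIMP3 at 24 h and FAP at 24 h against 8 h passed only with the block. The MMP1 point against P0 is measured from P0 values in the range of the controls.

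The effect of TGF-β1 on cultured cells was asked next. At 24 h, against P2 untreated cells, ADAMTS1 fell a further 7.48-fold and FAP rose 2.22-fold, while MMP1 and TIMP3 did not pass the test. Of the 6 probe sets 3 were called, 1 higher and 2 lower (8.49% of all probe sets were called, 4.27% higher and 4.22% lower), and the same number did not overlap between groups (25.3% of all probe sets). At 8 h, none of the 6 was called by limma, with both ADAMTS1 probe sets at an unadjusted p under 0.05 (5.07% of all probe sets were called). Replicate numbers paired the P2 arrays (the check is given with the processing), and with the number as a block in a fit of the P2 arrays alone, 2 probe sets were called lower at 8 h (12.5% of all probe sets were called) and at 24 h 1 was called higher and 3 lower (20% of all probe sets were called).

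ADAMTS1 read 8.31, 7.80 and 9.84 after 8 h of TGF-β1, against 10.70, 9.37 and 12.46 in P2 untreated cells. The 2 groups overlapped, because replicate 3 of the treated cells was above replicate 2 of the untreated ones. Within each replicate number, however, the treated array was the lower one, by 5.23-fold, 2.97-fold and 6.13-fold for numbers 1, 2 and 3. The log2 fold change of -2.19 ± 0.661 did not pass in the fit of all arrays (limma adjusted p = 0.0878), and it passed with the replicate block (-2.19 ± 0.332, adjusted p = 0.00759). It also passed in the fit without P2 untreated replicate 2 (-2.93, adjusted p = 0.0200) and without the 3 P2 arrays numbered 3 (-1.98, adjusted p = 0.0353). It did not pass without any other single array. Without P2 untreated replicate 3 the change was -1.38 (adjusted p = 0.276), and without 8 h replicate 2 it was -1.76 (adjusted p = 0.281).

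After 24 h ADAMTS1 read 7.85, 7.50 and 8.46, all below the lowest untreated array. The log2 fold change was -2.90 ± 0.661 (adjusted p = 0.0190), and -2.90 ± 0.332 with the replicate block (adjusted p = 0.00140). Within replicate numbers the treated arrays were lower by 7.20-fold, 3.65-fold and 15.9-fold for numbers 1, 2 and 3. The fit of all arrays was sensitive to single arrays: the adjusted p was 0.0521 without P2 untreated replicate 1, 0.0541 without P2 untreated replicate 3 (log2 fold change -2.10), 0.0604 without 24 h replicate 1 and 0.0661 without 24 h replicate 2. Without P2 untreated replicate 2 the change was -3.64, and without all 3 P2 arrays numbered 3 it was -2.36 (adjusted p = 0.00832).

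The second ADAMTS1 probe set read 7.79, 7.02 and 9.15 at 8 h and 7.02, 6.73 and 7.85 at 24 h. Its log2 fold change at 24 h against P2 untreated cells was -2.84 ± 0.655 (adjusted p = 0.0200). At 8 h it was -2.06 ± 0.655 (adjusted p = 0.105), or adjusted p = 0.00539 with the replicate block. Both probe sets therefore placed the gene at its lowest after 24 h. Between 24 h and 8 h the representative probe set differed by -0.71 (95% confidence interval from -2.16 to 0.73, adjusted p = 0.834).

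FAP moved the other way. Its values were 8.91, 8.64 and 8.51 at 8 h, against 8.83, 8.43 and 8.13 in P2 untreated cells, with a log2 fold change of 0.23 (95% confidence interval from -0.25 to 0.71, adjusted p = 0.686). At 24 h it read 9.66, 9.38 and 9.78, above every array of the other 3 groups. The log2 fold change at 24 h against P2 untreated cells was 1.15 ± 0.218 (adjusted p = 0.00770). The treated array was the higher one in each replicate number, by 1.79-fold, 1.93-fold and 3.15-fold for numbers 1, 2 and 3. The change at 24 h was 0.89 without the P2 arrays numbered 3 (adjusted p = 0.0862), and that at 8 h was 0.15 (adjusted p = 0.902).

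The gain in FAP between 8 h and 24 h was 0.92 ± 0.218 on the log2 scale, with no overlap between the groups (true of 13.7% of all probe sets). It did not pass in the fit of all arrays (adjusted p = 0.146), where 0.232% of all probe sets were called, and it passed with the replicate block (0.92 ± 0.154, adjusted p = 0.0299), where 2.44% were called. The gain was 0.74 without the P2 arrays numbered 3 (adjusted p = 0.499). Against P0 cells, FAP at 24 h was 2.54-fold higher (adjusted p = 0.000178). At 8 h the log2 fold change against P0 was 0.42 (adjusted p = 0.113), and 0.63 without P0 replicate 3 (adjusted p = 0.0250).

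TIMP3 read 7.46, 7.0 and 8.59 after 8 h and 6.96, 6.43 and 8.44 after 24 h, against 7.67, 7.31 and 9.16 in P2 untreated cells. The groups overlapped widely, since replicate 3 was the highest and replicate 2 the lowest in all 3 P2 groups. In the fit of all arrays the log2 fold change at 24 h was -0.77 (95% confidence interval from -2.01 to 0.47, adjusted p = 0.478). Within replicate numbers the 24 h array was lower by 1.63-fold, 1.84-fold and 1.65-fold for numbers 1, 2 and 3, and with the replicate block the change passed (-0.77 ± 0.105, adjusted p = 0.00280). Without the P2 arrays numbered 3, in the fit with no block, it was -0.79 (adjusted p = 0.117), and at 8 h -0.26 (adjusted p = 0.771).

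The second TIMP3 probe set, with means of 6.90 after 8 h and 6.72 after 24 h, against 7.09 in P2 untreated cells, gave a smaller change at 24 h. With the block it was -0.38 ± 0.114 and did not pass (adjusted p = 0.0550). At 8 h neither TIMP3 probe set passed in either fit, the representative one having a log2 fold change of -0.36 (adjusted p = 0.833, or 0.0625 with the block).

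MMP1 read 9.32, 8.48 and 8.46 after 8 h and 9.50, 8.64 and 8.57 after 24 h, against 9.25, 8.13 and 8.39 in P2 untreated cells. The groups overlapped, with replicate 1 the highest in each of them. The log2 fold change was 0.17 at 8 h (95% confidence interval from -0.60 to 0.93, adjusted p = 0.889) and 0.31 at 24 h (from -0.45 to 1.08, adjusted p = 0.670). All 3 replicate numbers had the 24 h array above the untreated one, by at most 1.42-fold, and the block fit gave 0.31 ± 0.0937 (adjusted p = 0.0547). Its changes without the P2 arrays numbered 3 were 0.21 at 8 h (adjusted p = 0.929) and 0.38 at 24 h (adjusted p = 0.760).

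**Figure D3:**
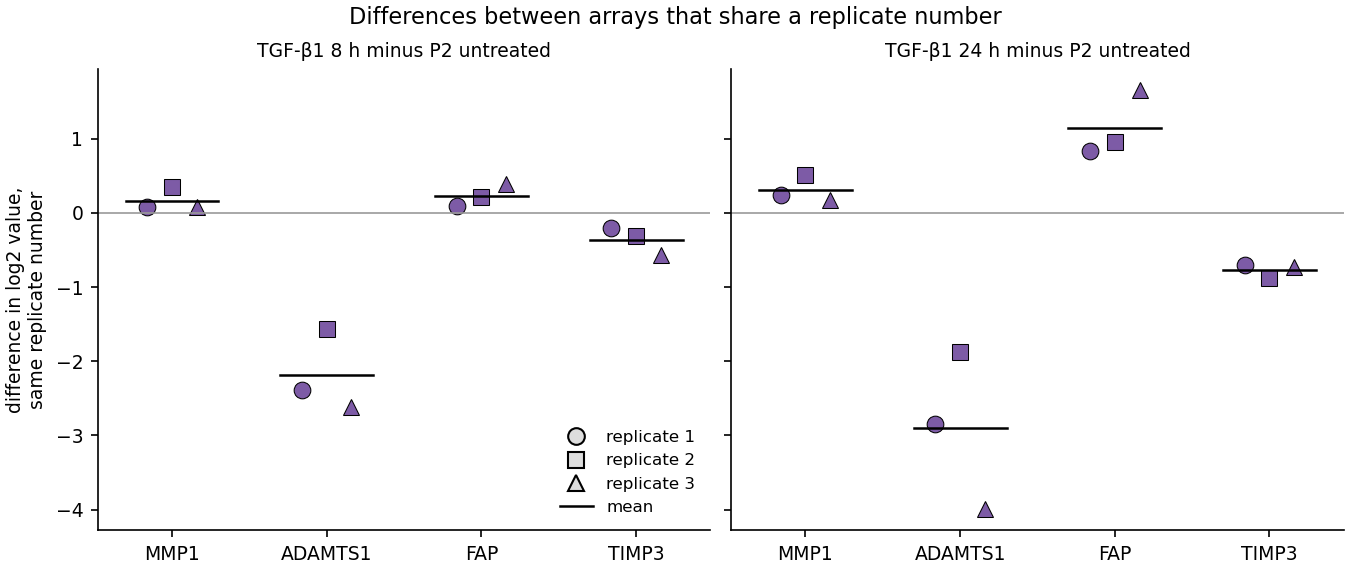
Difference in log2 value between P2 arrays with the same replicate number, TGF-β1 minus untreated, for each gene's representative probe set, at 8 h (left) and 24 h (right). Symbols mark the replicate number and the black line is the mean of the 3 differences. At 24 h ADAMTS1 and TIMP3 were below 0 and FAP and MMP1 above 0 in all 3 numbers, and only MMP1 stayed within 0.51 of 0.

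The 4 groups fell into one of 2 orders. For MMP1 and FAP it was 24 h, 8 h, P2 untreated and then P0, and of the neighbours for MMP1 only P2 untreated and P0 differed beyond their spread. For ADAMTS1 and TIMP3 it was the reverse, P0, P2 untreated, 8 h and then 24 h, and again only P0 and P2 untreated differed as neighbours in the fit of all arrays. For FAP no neighbours differed in that fit.

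ADAMTS1, TIMP3, MMP1 and, to a lesser degree, FAP varied more between cultured replicates than most probe sets. In P2 untreated cells the SD of ADAMTS1 was 1.55 log2 units, of TIMP3 0.983, of MMP1 0.587 and of FAP 0.350. These were larger than those of 99.9%, 99.4%, 97.0% and 87.4% of tested probe sets, while the median SD was 0.157. For FAP the share was 68.4% after 8 h and 53.8% after 24 h of TGF-β1. In P0 cells the SD of FAP was 0.387 and of TIMP3 0.251, larger than that of 90.6% and 72.2% of tested probe sets. Both thus also varied more than most in fresh cells. For MMP1 it was 0.406 (91.7%), but all its P0 values lay under the control level, so this is spread at background. The SD of ADAMTS1 in P0 cells was 0.0935, larger than that of 22.5%. ADAMTS1 and TIMP3 were highest in the P2 arrays numbered 3, where the endothelial marker sum was lowest, and lowest in those numbered 2, where it was highest (6252 in P2 untreated replicate 2, 1238 in replicate 3). The muscle markers with a probe set, 5 of 6 listed, also summed higher in untreated replicate 3 (504) than in replicates 1 and 2 (125 and 103), mostly through the cardiac actin ACTC1, with TNNT2 and MYL2 at the control level on all arrays. The part of these markers in the spread of ADAMTS1 and TIMP3 was not tested.

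The wider set of matrix proteases, their inhibitors and regulators held 89 listed genes, of which 46 had a probe set with a single symbol and 40 were tested. In P2 untreated against P0 cells 11 of the 40 rose (27.5%) and 16 fell (40%), against 42.1% and 24.2% of all 6012 tested genes. The median log2 fold change was -0.02 in the list and 0.20 over all genes. Without the P2 arrays numbered 3 the counts were 13 and 14. MMP1 had the largest fitted rise in the list. The fitted fall of TIMP3 was next to that of SERPINB2, with A2M known only as a lower bound.

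After MMP1, the largest fitted rises in culture included the serine protease PRSS23 (1.59 ± 0.229 on the log2 scale), the serpin SERPINE2, an inhibitor of thrombin and plasminogen activators (1.57 ± 0.177), and TIMP1 (1.41 ± 0.178, adjusted p = 2.51e-05). Heparanase HPSE also rose, but its P0 mean was under the control level, so its rise is only a bound of at least 1.92-fold and has no rank among these. Besides TIMP3 and ADAMTS1, the largest fitted falls were in SERPINB2, an inhibitor of plasminogen activators (-3.61 ± 0.520), the broad protease trap A2M (at least 8.85-fold), and PCOLCE2, an enhancer of procollagen processing (-2.35 ± 0.156). Inhibitors thus stood on both sides of the list.

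Within the inhibitor family itself the members differed in culture. TIMP1 read 15.50, 15.59 and 15.16 in P2 untreated cells, against 14.05, 13.72 and 14.26 in P0 cells, with no overlap, so it rose where TIMP3 fell. TIMP2, the other family member tested, had a log2 fold change of 0.30 (adjusted p = 0.0942). Of the other MMP genes tested, the gelatinase MMP2 fell (-1.58, adjusted p = 6.82e-05), while the membrane-bound MMP14 (0.25, adjusted p = 0.0771) and the gelatinase MMP9 (0.39, adjusted p = 0.134) did not pass.

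**Figure D4:**
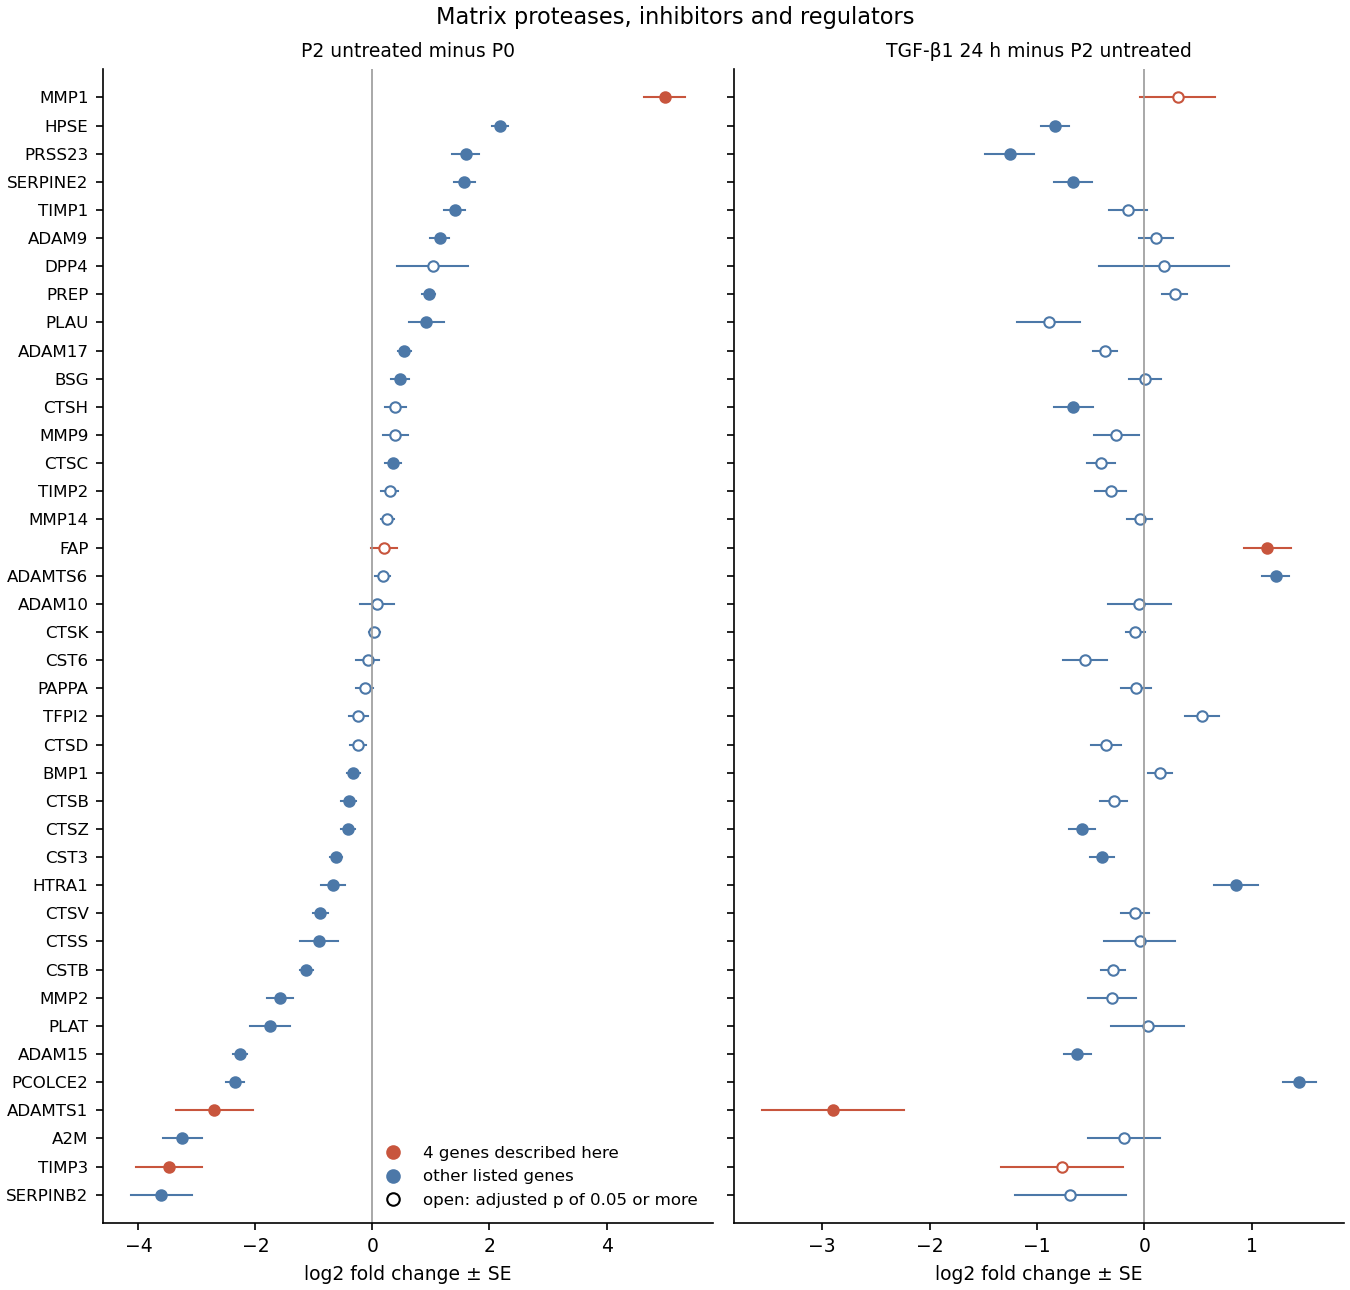
Log2 fold change ± SE of the 40 tested genes of the protease and inhibitor list, in P2 untreated minus P0 cells (left) and in TGF-β1 at 24 h minus P2 untreated cells (right), ordered by the left panel. Filled points had an adjusted p under 0.05 in the fit of all arrays, and the 4 genes followed here are in red. MMP1 stands at the top on the left and ADAMTS1 is the lowest on the right.

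With TGF-β1 the list moved less. At 24 h, 4 of the 40 genes rose and 8 fell (10% and 20%, against 4.42% and 5.67% of all genes), with a median log2 fold change of -0.22 against -0.01 over all genes. With the replicate block 5 rose and 17 fell (10.1% and 13% of all genes). Without the P2 arrays numbered 3 the counts were 4 and 4, in a fit with fewer calls over the whole array. The genes that rose were PCOLCE2 (1.44 ± 0.156), ADAMTS6, a relative of ADAMTS1 (1.23 ± 0.127), FAP, and the serine protease HTRA1 (0.85 ± 0.203). The 5 largest falls were in ADAMTS1, PRSS23 (-1.25 ± 0.229), HPSE (-0.83 ± 0.130), SERPINE2 (-0.66 ± 0.177) and the cathepsin CTSH (-0.66 ± 0.181). HPSE ended near the control level, with a mean of 4.69 at 24 h and replicate 3, at 4.52, under it. Besides ADAMTS1, ADAMTS6 was the one ADAMTS gene tested, and the pair moved in opposite directions: ADAMTS6 read 7.39, 7.31 and 7.48 at 24 h, against 6.05, 6.32 and 6.13 in P2 untreated cells (adjusted p = 0.000297).

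At 8 h only 3 of the 40 genes were called (2.74% of all genes were called higher and 2.84% lower). ADAMTS6 rose (0.73 ± 0.127), and the urokinase gene PLAU, whose product activates plasminogen (-1.41 ± 0.293), and ADAM17, a membrane sheddase that TIMP3 blocks (-0.49 ± 0.111), fell. With the replicate block 3 rose and 8 fell (6.15% and 8.03% of all genes). Without the P2 arrays numbered 3 the counts were 0 and 2, again with fewer calls over the whole array. Between 24 h and 8 h PCOLCE2 was the single gene of the list that was called (0.92 ± 0.156, adjusted p = 0.0411), where 0.283% of all genes were. Without the P2 arrays numbered 3 none of the list was called, in a fit with fewer calls over the whole array. With the replicate block 2 were called higher and 3 lower (0.848% and 1.85% of all genes).

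A further list of 28 genes held substrates and binding partners of the 4 proteins, and with them TNF, which ADAM17 releases. Of these genes 20 were tested. In culture 6 of them rose and 10 fell (5 and 8 without the P2 arrays numbered 3). That is 30% and 50%, against 42.1% and 24.2% of all genes, and the median change was -0.25 on the log2 scale, against 0.20 over all genes. The largest falls were in TNF (at least 64.8-fold), the growth factor HBEGF (-3.56 ± 0.278), both released from the membrane by ADAM17, and aggrecan (ACAN, -3.25 ± 0.551), a substrate of ADAMTS1. The part of the lower macrophage marker level of cultured cells in these falls was not tested. The largest rises were in syndecan SDC2 (1.98 ± 0.141), the basement membrane protein NID2 (1.25 ± 0.231) and the collagen chain COL5A2 (1.11 ± 0.153). At 8 h of TGF-β1 IGFBP5 (1.01 ± 0.186) and THBS2 (0.84 ± 0.196) rose and none fell, against 2.74% of all genes higher and 2.84% lower. With the replicate block 4 rose (6.15% of all genes were called higher). Without the P2 arrays numbered 3 only 1 did, in a fit with fewer calls over the whole array. At 24 h 5 rose and 1 fell (median 0.15), or 8 and 2 with the replicate block and 4 and 1 without the P2 arrays numbered 3. Of all genes 4.42% rose and 5.67% fell, or 10.1% and 13% with the block, with a median of -0.01. The rises were led by the growth factor binding protein IGFBP5 (2.13 ± 0.186), COL5A1 (0.97 ± 0.166) and THBS2 (0.91 ± 0.196). The one that fell was COL3A1 (-1.14 ± 0.292), on a probe set at a mean of only 4.79 in the treated cells.

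The genes whose log2 values ran most like each member were found by Pearson correlation among 6012 genes, as a description in which arrays of a group share their treatment. Over the 12 arrays these were MTA3, RPUSD4 and MRPL16 for MMP1 (r = 0.994, 0.991 and 0.991), a pattern so common that 1323 genes had r over 0.9 with it. For ADAMTS1 they were CDO1, an enzyme of cysteine breakdown, SESN1 and JADE2 (r = 0.989, 0.987 and 0.981), with 232 genes over 0.9. For TIMP3 they were HOGA1, the protease MMP2 and ASAP3 (r = 0.992, 0.991 and 0.988), with 455 genes over 0.9. FAP had only 3 such genes, MAN1A2, SMOX and GRK3 (r = 0.919, 0.908 and 0.906).

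Over the 9 P2 arrays alone, where the fresh cells no longer set the pattern, CDO1 was again the closest to ADAMTS1 (r = 0.991), followed by FAM13C and C2H19orf66 (both r = 0.980). CDO1 had means of 8.70 in P2 untreated cells, 6.79 at 8 h, 6.30 at 24 h and 11.88 in P0 cells. For TIMP3 the closest were SPP1, which encodes osteopontin, KRCC1 and ASAP3 (r = 0.986, 0.983 and 0.975). For MMP1 they were AKAP3, the plasminogen activator gene PLAT and SNRNP35 (r = 0.966, 0.956 and 0.918). For FAP they were RCN1, DPM2 and AIMP2 (r = 0.975, 0.965 and 0.963). P2 arrays with the same replicate number also shared deviations from their group means. The 9 arrays are therefore not independent, and a high r can come from differences between replicate numbers as well as from treatment. Several of the genes named here ran against their P2 partners between fresh and cultured cells. Opposite to TIMP3, SPP1 averaged 12.50 in P2 untreated and 9.87 in P0 cells, and KRCC1 9.50 and 9.04. Opposite to MMP1, PLAT averaged 11.83 in P2 untreated and 13.58 in P0 cells, and AKAP3 5.58 and 6.01. Opposite to ADAMTS1, FAM13C averaged 8.38 in P2 untreated and 6.67 in P0 cells, and C2H19orf66 8.30 and 7.66. CDO1, ASAP3 and SNRNP35 ran the same way as their partners.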

How the data were processed

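Total RNA of 12 samples (4 groups of 3 biological replicates) was labelled with a 3' IVT kit and read on porcine arrays, per the labels' protocols. The authors deposited 1 log2 value per probe set and array, made with GCRMA (no version) per the submitters' processing notes, and these were analysed unchanged. Other steps were not stated. The number of arrays limits the precision. The labels call the replicates biological but name no donors.

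Leaving out 64 reporter controls, 17638 probe sets over log2 4 in at least 3 arrays were tested. One model of the 4 group means was fitted over the 12 arrays with lmFit and eBayes of limma 3.58.1 in R 4.3.3 (residual degrees of freedom 8, prior 3.745), two-sided, with Benjamini-Hochberg adjustment over all tested probe sets in each of 6 comparisons, and called at an adjusted p under 0.05. Errors are standard errors unless named otherwise. Where 1 group mean lay under the 95th percentile of the reporter controls, the fold is a lower bound from that level. Gene symbols were those of the platform annotation, updated through gene IDs for the lists. The members and lists were chosen with earlier results of these data known. From the protease list up to 5 rises and 5 falls, and from the substrate list up to 3, were named by size among called genes, and for each member the 3 most alike genes. TIMP2, MMP2, MMP9 and MMP14 fall outside this rule in culture and were added after their values were seen, as the remaining tested genes of both families.

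After group means were removed, the 9 pairs of same-numbered P2 arrays had correlations of 0.348 to 0.679, and replicate number was taken as pairing the P2 arrays. Pairs of different numbers had -0.513 to 0.0796. Removing a mean of 3 arrays itself pushes these values down where same-numbered arrays correlate, so they are not separate support for the pairing. P0 arrays showed no such link (-0.0916 to 0.0158). The fit was run on simulated data with noise drawn independently for each array, which leaves out the pairing of the P2 arrays. That run therefore does not show how the fit without a block behaves on paired arrays. Alternatives were no filter, a filter at log2 6, median centring, quantile normalization, a replicate block, the P2 arrays alone, a trended robust prior, the mean of each gene's probe sets, leaving out each array, and, chosen after seeing the data, leaving out the P2 arrays numbered 3.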

Additional observations from a re-analysis of the deposited data

Results flagged for a closer look

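The response of FAP to TGF-β1 differed between the time points only in the fit of the P2 arrays with the replicate block. There the change at 24 h exceeded that at 8 h by 0.92 on the log2 scale (95% confidence interval from 0.56 to 1.28, limma adjusted p = 0.0299). That fit called 2.44% of all probe sets. The 24 h array was the higher one in all 3 replicate numbers. Both changes are measured against the same untreated arrays, so their difference is that of the 24 h and 8 h arrays. In the fit of all arrays without the block the same difference had an adjusted p of 0.146, and without the P2 arrays numbered 3 it was 0.74 (adjusted p = 0.499). No group has the 4 or more arrays needed to look for a single array far from the rest.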

How the results depend on the processing

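The log2 fold changes of the 4 genes against P0 kept their direction and side of the threshold under all alternatives, except that FAP at 8 h was called without P0 replicate 3 (leaving out single arrays gave 0.25 to 0.63). Median centring, quantile normalization and both filters changed no call of a member. The replicate block, in all arrays (-2.19, adjusted p = 0.0177) or in the P2 arrays alone (-2.19), brought ADAMTS1 at 8 h past the threshold, and in the P2 arrays alone also TIMP3 at 24 h (-0.77) and FAP at 24 h against 8 h (0.92); it changed no other call of a member. Without the P2 arrays numbered 3, ADAMTS1 at 8 h passed (-1.98) and FAP at 24 h did not (0.89). Leaving out single arrays gave ADAMTS1 from -2.93 to -1.38 at 8 h and from -3.64 to -2.10 at 24 h. Changes that passed in no such fit altered sign for MMP1 at 8 h (-0.12 to 0.50) and at 24 h against 8 h (-0.15 to 0.43), and for TIMP3 at 8 h (-0.82 to 0.19) and at 24 h against 8 h (-0.99 to 0.049). The cause of these shifts was not tested.

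Counts of called probe sets were 894 at 8 h, 1498 at 24 h and 41 at 24 h against 8 h. They were 2200, 3519 and 430 with the block in the P2 arrays alone, and 265, 762 and 12 without the P2 arrays numbered 3. Leaving out single arrays gave 364 to 702, 800 to 1347 and 4 to 44. The count at 24 h against 8 h was also 25 with no filter, 109 with the block in all arrays, 20 in the P2 arrays alone and 72 with a trended robust prior. A level in the range of the reporter controls, as for MMP1 in P0 cells, gives only a bound.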
